A study of Mus musculus with 15 samples.

Results

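The G2/M and mitosis genes are a list of 42 entries, chosen as transcripts of the second gap phase and of cell division that are known to be repressed when p53 is active. Of these entries, 40 were found under their own symbol, Cdk1 was found under its older symbol Cdc2a, and 1 entry, Ube2c written with the words "not used", matched no row, which left 41 of the 20207 genes in each table. All 41 had at least 1 count in every library and were tested among 10276 genes that met this rule. Levels came from mRNA-seq of NIH3T3, a line of mouse embryonic fibroblasts. The cells carried a stable DD-sfGFP transgene, which joins superfolder GFP to the destabilizing domain (DD), a mutant form of FKBP. All 15 samples carried this fusion, and the cells had been grown with Shield-1 (S1), the small molecule that keeps the DD folded. There were 5 control samples with no stress at time 0, 3 samples taken 45 min after S1 removal, 3 taken at 135 min and 4 taken at 405 min. The methods of the study state that purified FKBP(F36V) protein was put into the medium to take up S1, and that cells with a stable integration were sorted for a high level of GFP. Whether they were a single clone is not given in the sources used here. No sample of cells without the DD, or of cells given the protein alone, was analysed here.

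Entry into mitosis is driven by CDK1 bound to cyclin B, which is switched on by the CDC25 phosphatases and helped by the kinases PLK1 and Aurora A. Chromosomes then attach to the spindle through kinetochores, the spindle assembly checkpoint holds the anaphase-promoting complex (APC/C) until every chromosome is attached, and the APC/C with its activator CDC20 then destroys securin and cyclin B. Most genes of this program are transcribed late in the cycle. When p53 induces p21, the product of Cdkn1a, the CDKs are inhibited and the DREAM complex, built of a MuvB core, E2F4 and the pocket protein p130, binds the promoters of these genes at a cell cycle homology region (CHR) and represses them. The factor NF-Y binds CCAAT boxes in the same promoters and activates them. In bulk RNA, fewer cells in G2 and M and less of a transcript in each such cell cannot be told apart.

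The promoters of the list were searched for the letters of the CHR core and the CCAAT box. RefSeq windows from 250 bases before to 50 bases after the transcription start (GRCm38.p6) were held for 34 of the 41 genes, in 37 windows. The CHR core was searched as TTTGAA on both strands and the CCAAT box as CCAAT on both strands, and matches of the 2 motifs can overlap by at most 1 letter. The CHR core was present in 27 of 37 windows (73.0%), against 17.9% of all 32851 windows. Within 50 bases of the start it was present in 64.9% of the list's windows and in 4.94% of all windows. A CCAAT box was present in 78.4% of the windows, against 37.4% of all. Both features together, a CHR core within 50 bases of the start and a CCAAT box anywhere, were held by 59.5% of the list's windows and by 2.08% of all windows. The CHR core was found in 24 genes, and the letters were not in the windows of Birc5, Bub1, Ccnb1, Cdc25b, Cenpe, Mad2l1, Nek2, Nuf2, Nusap1 and Pttg1. A variant with 1 letter changed, TTCGAA, was in 10.8% of the list's windows and 1.56% of all. Bub1 and Cdc25b were among the genes with this variant. A match is a description of letters and not a measured binding site.

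**Figure D1:**
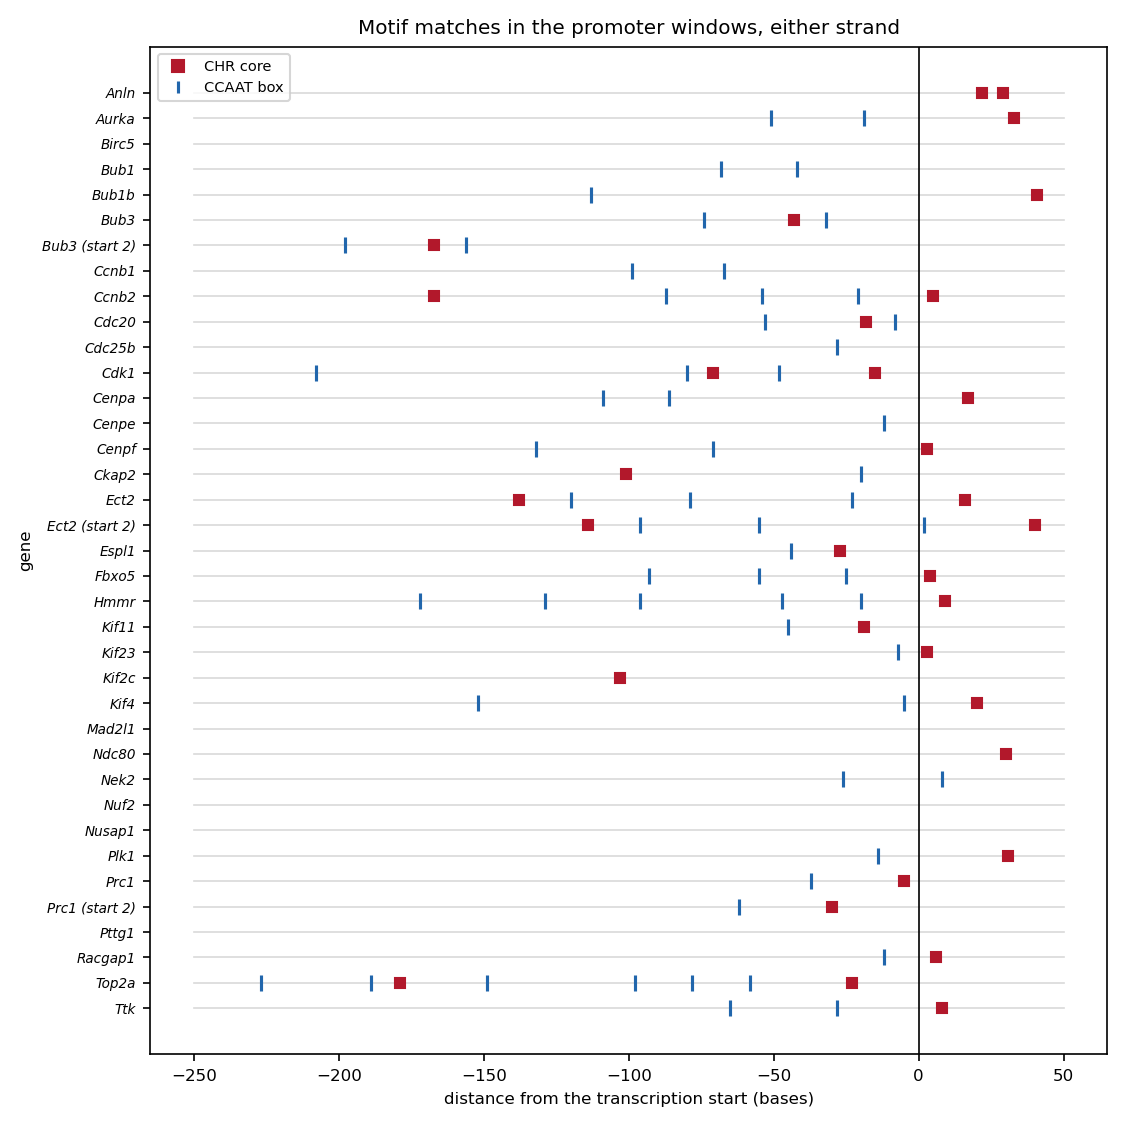
Position of each CHR core (squares) and CCAAT box (ticks) on either strand, in bases from the transcription start, for the 37 promoter windows of 34 G2/M and mitosis genes. Most squares lie within 50 bases of the start (64.9% of windows), and the ticks lie mainly upstream of it.

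The promoters of 3 of these genes, those of the cyclin-dependent kinase CDK1, of the APC/C activator CDC20 and of topoisomerase II alpha, are shown because their CHR cores lie upstream of the start, next to CCAAT boxes. Each sequence is the 200 bases before the start, read 5′ to 3′ on the strand of the gene, which is the minus strand of NCBIM37 (mm9) in all cases, at chr10:68815661-68815860 for Cdk1, chr4:118109949-118110148 for Cdc20 and chr11:98885504-98885703 for Top2a. Capitals mark CHR cores (TTTGAA, or TTCAAA on the other strand) and CCAAT boxes (CCAAT, or ATTGG on the other strand).
Cdk1: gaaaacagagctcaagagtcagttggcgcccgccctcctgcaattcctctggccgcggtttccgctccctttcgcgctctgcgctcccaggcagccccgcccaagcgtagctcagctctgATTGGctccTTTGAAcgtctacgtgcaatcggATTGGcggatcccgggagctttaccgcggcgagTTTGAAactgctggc
Cdc20: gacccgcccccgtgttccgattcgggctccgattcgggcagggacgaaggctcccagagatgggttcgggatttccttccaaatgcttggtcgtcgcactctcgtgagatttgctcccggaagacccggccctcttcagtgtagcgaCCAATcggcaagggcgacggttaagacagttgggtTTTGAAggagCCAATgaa
Top2a: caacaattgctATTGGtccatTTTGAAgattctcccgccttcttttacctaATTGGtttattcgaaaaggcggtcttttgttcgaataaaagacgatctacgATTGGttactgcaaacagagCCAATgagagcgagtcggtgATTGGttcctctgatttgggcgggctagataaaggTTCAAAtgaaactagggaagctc
The Cdk1 promoter held 2 CHR cores within these bases and Top2a also held 2, of which the one nearer the start was on the other strand. The Cdc20 promoter held 1 CHR core between a pair of CCAAT boxes.

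The libraries held from 6652539 counts (control 3) to 30258404 counts (45 min, replicate 1). They differed in how counts depended on base composition: over all tested genes outside the cell cycle lists, the slope of log2 CPM (counts scaled to a common depth) on exonic GC content ran from -1.409 to 0.034 per 10 percentage points of GC. A division into 2 sets that minimised the spread of this slope put control 2, 45-min replicate 3 and 405-min replicates 1, 2 and 4 in set 2, and the other 10 libraries, which include all 135-min samples, in set 1. The sets are a grouping made from the data by GC dependence and not a label. Whether they follow library preparation or the time after S1 removal was not tested. All 7 fibroblast markers were present in every library (lowest count 581, Pdgfrb), and 7 markers of epithelial, blood and endothelial cells reached at most 75 counts in any library. Of the fibroblast markers Vim, Col1a2 and Pdgfrb fell at 405 min, by 0.61, 0.39 and 0.70 on the log2 scale, and Pdgfrb also fell at 135 min, by 0.92 (SE 0.21, adjusted p = 0.0418). The part of cell makeup in the results was not tested. Cdkn1a, the gene of p21, had a CPM of 20.2, 34.8, 25.3, 20.8 and 28.0 in the controls, 59.3, 48.0 and 98.5 at 45 min, 124, 122 and 132 at 135 min and 124, 86.2, 60.3 and 96.1 at 405 min. Every treated sample was above every control. Its log2 fold change was 2.29 (SE 0.25, adjusted p = 0.000218) at 135 min and 1.83 (SE 0.24, adjusted p = 0.000247) at 405 min by edgeR's quasi-likelihood test with Benjamini-Hochberg adjustment over all tested genes, the test behind every adjusted p given here. Adjusted p-values measure the spread between these samples, since nothing in the labels says that they came from separate cultures.

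In control cells the list spanned a wide range of levels per length. On the RPKM scale (reads scaled by gene length and depth), Top2a, which untangles DNA before chromosomes separate, had the highest mean (57.6 ± 20.5, SD, n = 5), followed by the checkpoint protein gene Mad2l1 (51.3 ± 18.9) and the survivin gene Birc5 (45.5 ± 12.6). Neighbours in this order lay within these SDs of one another: the next 6 genes, Cenpe, Anln, Ckap2, Ccna2, Ccnb1 and Cdk1, lay between 40.7 and 44.4 RPKM. The RPKM summed over all genes differed between controls, from 159763 (control 3) to 301654 (control 5), and the SDs include that difference in scale. Whether neighbours differed within single libraries was not tested. The lowest were Nek2 (5.03 ± 2.91), the phosphatase gene Cdc25c (4.13 ± 2.17) and the separase gene Espl1 (3.95 ± 1.85). Top2a stood above 93.8% of tested genes in control mean RPKM and Espl1 above 43.7%. The CPM values that follow are scaled by TMM factors and compare libraries for 1 gene, not genes with one another.

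The summed share of counts in the 41 genes was 0.699%, 0.596%, 0.782%, 0.787% and 0.99% in controls 1 to 5. It was 0.661%, 0.705% and 0.841% at 45 min, 0.644%, 0.654% and 0.652% at 135 min and 0.555%, 0.624%, 0.925% and 0.784% at 405 min. The 135-min samples were close to one another and inside the range of the controls. The 405-min samples were spread widely, from 0.555% in replicate 1, below every control, to 0.925% in replicate 3, below control 5 alone. The same held gene by gene: the ratio of the highest to the lowest CPM within a group had a median over the list of 2.06 in controls, 1.37 at 45 min, 1.09 at 135 min and 1.78 at 405 min. Over all tested genes these medians were 2.39, 1.51, 1.19 and 1.62. Pttg1 varied most among controls (4.94-fold) and Birc5 least (1.12-fold).

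**Figure D2:**
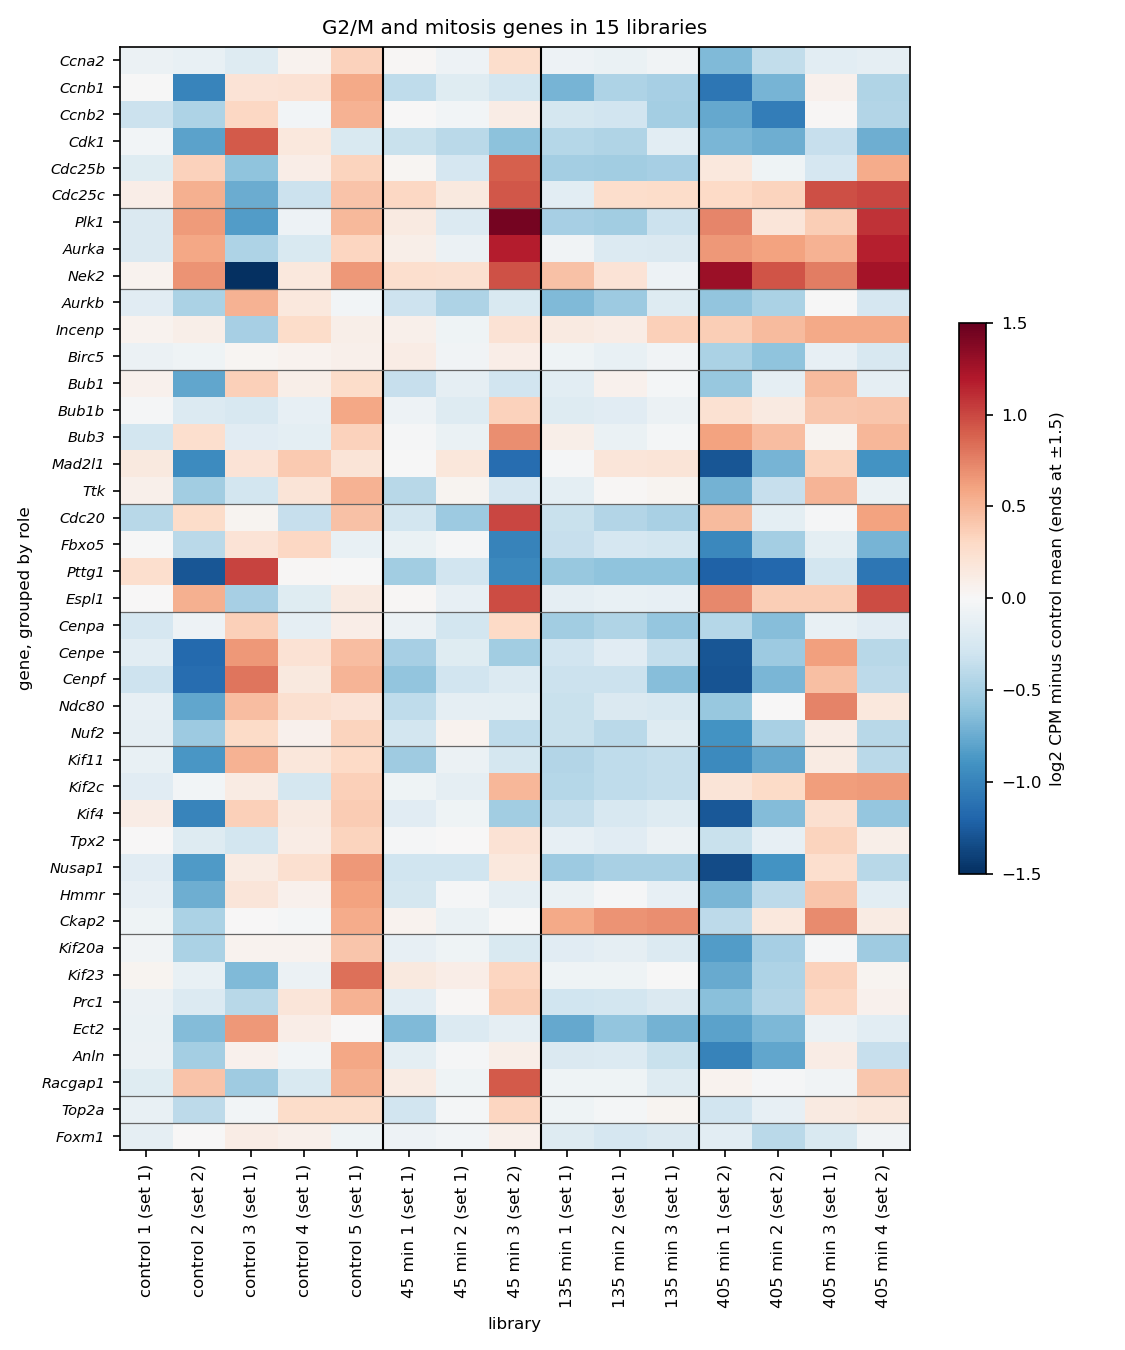
Level of each of the 41 genes (rows, grouped by role) in the 15 libraries (columns, with their library set), as log2 CPM minus the mean of the controls, with colours ending at ±1.5. The 3 columns at 135 min look alike and mostly pale blue, control 5 is red for 36 of 41 genes, and 405-min replicate 3 differs from the other 405-min replicates.

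At 45 min no gene of the list passed the edgeR test, as was so for all genes (0.0% of 10276 called), and 0 had an unadjusted p under 0.05 or a call by DESeq2 (0.0584% of all genes called). The median log2 fold change of the list was -0.02 and that of all tested genes 0.02, and 23 of 41 were negative. No member had all 3 samples outside the range of the controls, where 0.467% of all genes lay above and 0.448% below. The values followed the library set: within set 1 (2 treated samples, 4 controls) the median was -0.21 and within set 2 (1 treated sample, 1 control) it was 0.46. Within set 1, 33 of 41 genes were negative, against 49.8% of all genes, and none was called. There, 11 of 41 genes had all treated values below all 4 controls, against 12.4% of all genes, and none lay wholly above. Within set 2, 39 of 41 were above the control, against 50.8% of all genes, with 1 sample on each side. The 45-min samples thus had no direction shared by the 2 sets, while those of set 1 lay mostly below their controls.

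At 135 min most of the list lay below the controls by a small amount. Of 41 genes, 36 (87.8%) had a negative log2 fold change, against 56.6% of all tested genes, and the medians were -0.29 and -0.06. Without control 5, the control with the largest summed share of counts in the list, 29 of 41 were negative and the median was -0.14, and with replicate number as a block 27 were negative and the median was -0.12. No member passed the edgeR test, beside 1.46% of all genes called in either direction and 0.895% called down. By DESeq2 there were 0 calls in the list as well, beside 4.18% of all genes, and 6 genes had an unadjusted edgeR p under 0.05, in a comparison that gave 1226 such genes of 10276. Since all 135-min libraries were in set 1, the comparison was also made against the 4 controls of that set. There 6 genes fell, beside 3.48% of all genes called down: Ccnb1 by 0.81 (SE 0.15, adjusted p = 0.0144), Ect2 by 0.87 (SE 0.19, adjusted p = 0.028), Pttg1 by 0.97 (SE 0.24, adjusted p = 0.0437), Nusap1 by 0.75 (SE 0.18, adjusted p = 0.0375), Kif11 by 0.62 (SE 0.16, adjusted p = 0.0487) and Kif4 by 0.51 (SE 0.11, adjusted p = 0.0317). With library set as a term in the model of all 15 samples, Ccnb1, Ect2 and Pttg1 were called down and no gene up, beside 4.88% of all genes called down and 3.06% called up. GC dependence still differed within set 1, with slopes from -1.409 to -0.979 in its controls and from -0.91 to -0.805 at 135 min. Under the correction for GC content 33 of 41 genes were negative (median -0.25). None was called down there and Ckap2 was called up, beside 115 genes down and 115 up of 10276. Read per sample in set 1, 17 of 41 genes had all 3 values below all 4 controls, against 14.8% of all tested genes, and 1 gene, Ckap2, had all 3 above, against 14.6%. With the fifth control included, 3 genes of the list, Cenpa, Kif2c and Foxm1, lay wholly below (4.75% of all genes) and Ckap2 wholly above (4.79%). Of the 6 genes called within set 1, Ccnb1, Ect2, Pttg1, Nusap1 and Kif4 also lay wholly below its 4 controls at 45 min. Kif11 did not. For these genes, values below the set 1 controls were also seen at 45 min, though no gene of the list was called at 45 min. The samples at 45 min and at 135 min were compared with the same 4 controls, and the genes were picked by their call against them. High values in these controls would place the samples of each time below them, so the overlap is partly built in. Whether the genes were lower at 45 min apart from these controls was not tested.

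The genes that carry this pattern at 135 min act at different steps. Ccnb1 encodes cyclin B1, the partner of CDK1. Its CPM was 204, 103, 236, 238 and 304 in controls 1 to 5, 157, 180 and 169 at 45 min, 126, 149 and 145 at 135 min, and 96.6, 126, 214 and 150 at 405 min. Control 2, the only control of set 2, was the lowest control. The 135-min samples lay above it and below the other 4 controls, and 405-min replicate 3 also lay above control 1. The log2 fold change at 135 min was -0.63 (SE 0.29, adjusted p = 0.402) with all controls, and Ccnb1 is uncertain in level because 3 near-identical copies of its transcript lie elsewhere in the genome (best match 99.1% identical over 61.3% of its length, on chromosome 7). Ect2, an exchange factor that sets the cleavage furrow, lay at 87.0, 97.9 and 90.4 CPM at 135 min against 138, 94.3, 232, 158 and 148 in controls. Only control 2 reached into the 135-min range. Ckap2, a microtubule-stabilising spindle protein, was the exception on the other side, with 311, 334 and 339 CPM at 135 min and 201, 151, 210, 205 and 308 in controls. Its samples did not overlap, yet its log2 fold change of 0.61 (SE 0.22) did not pass the test (adjusted p = 0.259). A correction for GC content brought it past the threshold (0.69, SE 0.17, adjusted p = 0.0407). Ect2, Ckap2, Nusap1, Kif11, Kif4, Cenpa and Kif2c were picked for mention after their values were seen.

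By role, the centromere and kinetochore genes (Cenpa, Cenpe, Cenpf, Ndc80 and Nuf2) had a median of -0.39 at 135 min with all 5 negative. The 4 APC/C regulators and sister separation genes (Cdc20, Fbxo5, Pttg1 and Espl1) also had a median of -0.39 with all 4 negative, and the 6 central spindle and cytokinesis genes a median of -0.25 with all 6 negative. The 6 genes for cyclins, CDK1 and its phosphatases had a median of -0.42, with Cdc25c alone positive (0.05, SE 0.30). The 5 spindle assembly checkpoint genes had a median of -0.07 and the 3 mitotic kinases one of -0.21. None of these groups had a gene past the test with group as the only term.

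At 405 min, 3 of 41 genes passed the test. Incenp rose, beside 9.99% of all genes called up, and Birc5 and Pttg1 fell, beside 13.4% of all genes called down. The shares of 1 and 2 of 41 are below these percentages. The list's median log2 fold change was -0.21 (all tested genes -0.00), 27 of 41 genes were negative (50.1% of all tested genes), and 14 had an unadjusted p under 0.05, in a comparison that gave 4222 such genes of 10276. No call was left when library set was added to the model (median -0.07), a fit in which 6.17% of all genes were still called up and 6.87% down. Within set 1, which had 1 sample at 405 min, the median was 0.02, and within set 2, which had 3 samples at 405 min and 1 control, it was 0.08. Both within-set values rest on a group of 1 sample, assumed to vary like the rest. Without control 2 the counts were 5 up and 14 down (24.5% and 23.9% of all genes), without 405-min replicate 3 they were 2 up and 13 down (14.6% and 19.9%), and without 405-min replicate 1, 2 or 4 or control 1 they were 0. Over the 15 fits that each left out 1 library, Incenp was called in 11 and Birc5 and Pttg1 in 4 each.

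**Figure D3:**
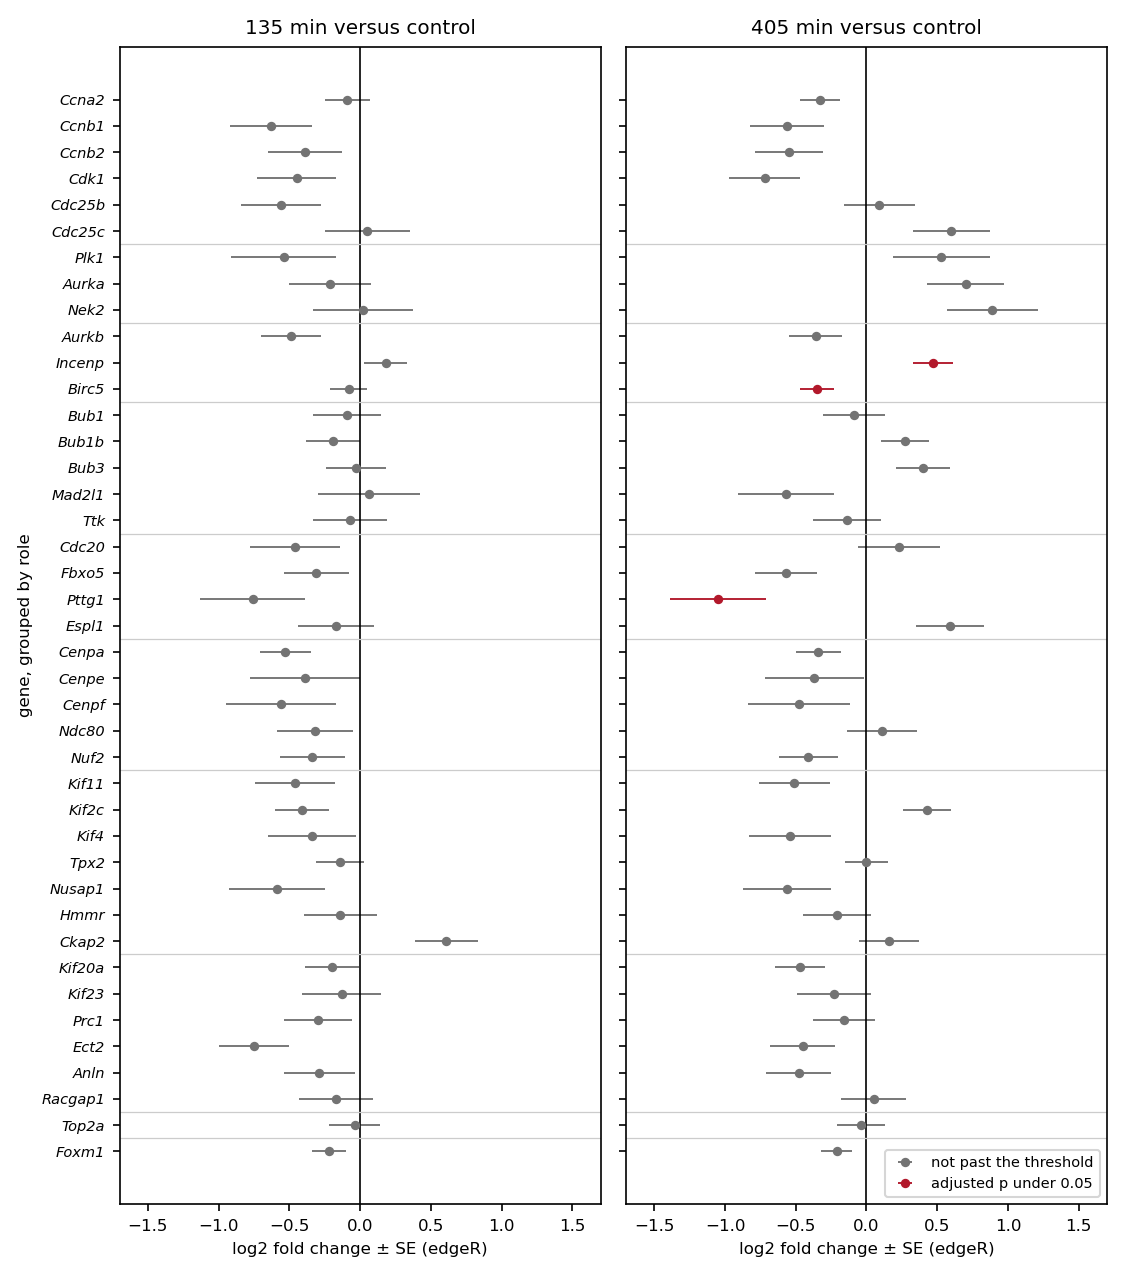
Log2 fold change with its SE (edgeR) for the 41 genes at 135 min (left) and 405 min (right) against all controls, grouped by role, with genes past an adjusted p of 0.05 in red. At 135 min 36 of 41 points lie left of 0 and none is red, and at 405 min Incenp (0.47), Birc5 (-0.35) and Pttg1 (-1.05) are red.

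Securin, the product of Pttg1, holds separase inactive until anaphase. Pttg1 had 69.2, 23.9, 118, 59.1 and 58.1 CPM in controls 1 to 5 and 40.5, 47.9 and 29.8 at 45 min. It had 39.3, 38.3 and 38.3 CPM at 135 min and 25.1, 25.8, 48.3 and 27.4 at 405 min. The 4 controls of set 1 were above all treated samples, while control 2 was below all of them, so the groups overlapped by that 1 library. Within each set the picture differed: set 1 gave -0.66 (SE 0.36) and set 2 gave 0.12 (SE 0.24) at 405 min, neither past the test. The log2 fold change over all samples was -1.05 (SE 0.34, adjusted p = 0.0401), and with library set as a term it was -0.43 (SE 0.25, adjusted p = 0.292). At 135 min the term for library set moved the value the other way, from -0.76 (SE 0.37, adjusted p = 0.449) over all samples to -0.87 (SE 0.24, adjusted p = 0.0367).

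The chromosomal passenger complex, which corrects wrong attachments and guides cytokinesis, held both of the other called genes. Birc5, which encodes survivin, had 92.1, 93.2, 100, 101 and 103 CPM in controls, 106, 94.3 and 105 at 45 min, 93.2, 90.2 and 93.9 at 135 min and 70.2, 64.3, 89.5 and 82.6 at 405 min. All 405-min values were below all controls, and replicate 3, the 405-min sample of set 1, was the nearest to them. The log2 fold change was -0.35 (SE 0.12, adjusted p = 0.0434), and it was -0.29 (SE 0.12, adjusted p = 0.115) with library set as a term. Incenp, the scaffold of the complex, had 235, 241, 161, 274 and 242 CPM in controls, 239, 218 and 265 at 45 min, 249, 245 and 292 at 135 min and 294, 315, 337 and 337 at 405 min. All 405-min values were above all controls and above all 135-min values. Its log2 fold change was 0.47 (SE 0.14, adjusted p = 0.0286), it was 0.44 (SE 0.15, adjusted p = 0.0604) with library set as a term, and it turned to -0.10 (SE 0.20) under the correction for GC content. The kinase of the complex, Aurkb, lay at -0.36 (SE 0.19, adjusted p = 0.161). Groups that did not overlap at 405 min numbered 2 above, Incenp and the centrosomal kinase gene Nek2 (6.75% of all genes), and 1 below, Birc5 (6.43%).

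**Figure D4:**
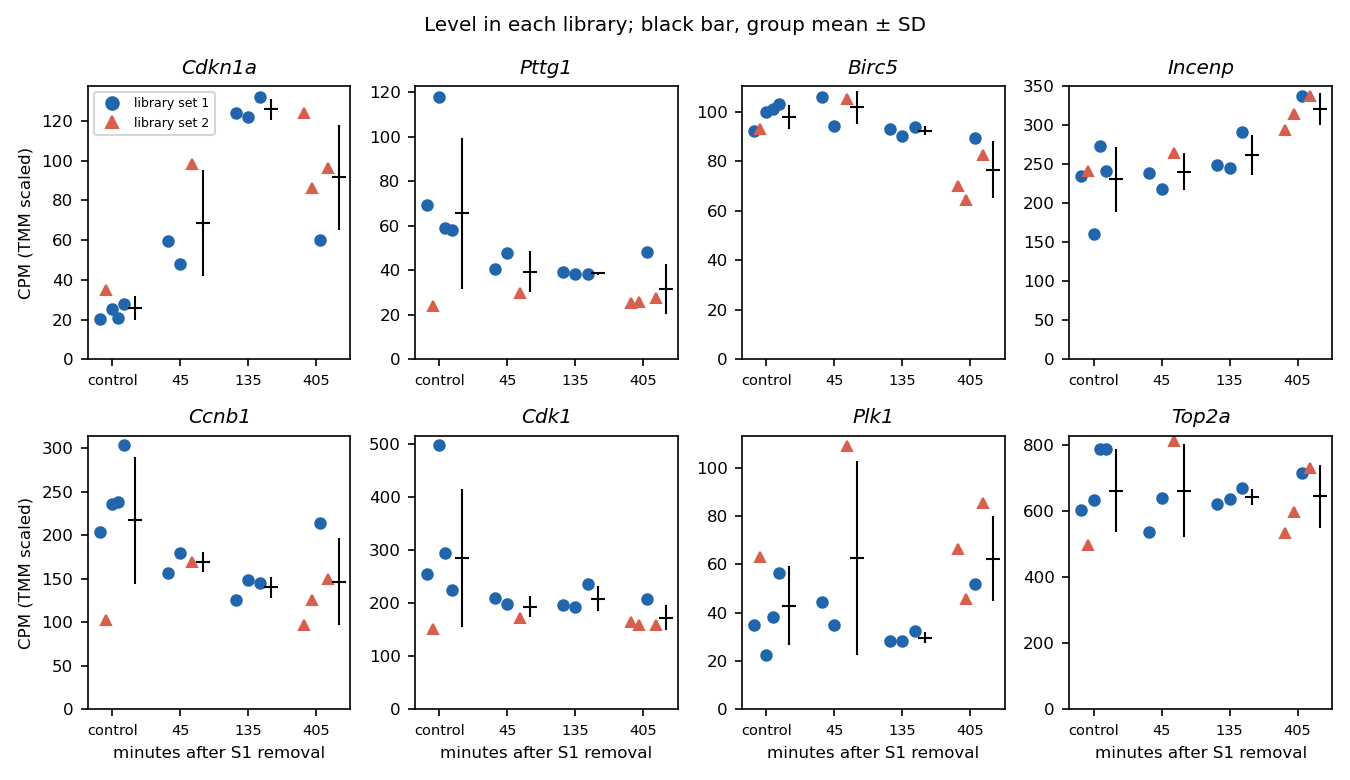
CPM of Cdkn1a and 7 genes of the list in every library against minutes after S1 removal, with circles for library set 1, triangles for set 2 and black bars for the group mean ± SD. Cdkn1a lies above the controls (20.2 to 34.8 CPM) in all 10 treated samples, whereas for Ccnb1 and Pttg1 the single set 2 control sits with the treated samples.

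Cdk1 encodes the kinase that drives mitotic entry. It had 255, 151, 498, 295 and 224 CPM in controls 1 to 5, 209, 199 and 172 at 45 min, 196, 193 and 236 at 135 min and 164, 159, 207 and 158 at 405 min. Control 2 was again the lowest control and lay below every treated sample, and control 3, the shallowest library, was the highest. The log2 fold change was -0.45 (SE 0.28, adjusted p = 0.567) at 135 min and -0.72 (SE 0.25, adjusted p = 0.0511) at 405 min. The 405-min value was -0.38 (SE 0.24, adjusted p = 0.325) with library set as a term, 0.08 (SE 0.21) within set 2 and -0.90 (SE 0.30, adjusted p = 0.0373) under the correction for GC content. Ccna2, the gene of cyclin A2, which acts from S phase into early mitosis, had 241, 238, 224, 267 and 325 CPM in controls, 259, 244 and 308 at 45 min, 243, 239 and 248 at 135 min and 162, 198, 230 and 233 at 405 min. The 405-min samples overlapped the controls only by their highest 2 values. The change at 405 min was -0.33 (SE 0.14, adjusted p = 0.0957). The remaining genes of this role lay at -0.56 (Ccnb1, SE 0.26), -0.55 (Ccnb2), 0.09 (Cdc25b) and 0.60 (Cdc25c) at 405 min, none past the test.

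Among the genes of kinases that act in mitosis, Plk1, Aurka and Nek2 had positive values at 405 min, whereas Aurkb (-0.36), Ttk (-0.14) and Bub1 (-0.09) had negative ones, as Cdk1 did. Plk1, which drives centrosome maturation and mitotic entry, had 34.7, 62.9, 22.5, 38.1 and 56.4 CPM in controls, 44.3, 34.8 and 109 at 45 min, 28.4, 28.1 and 32.3 at 135 min and 66.6, 45.5, 51.9 and 85.3 at 405 min. Set 2 libraries were the high ones among the controls and at 45 min. Aurka, the kinase of spindle poles, had 43.5, 75.2, 36.4, 43.0 and 63.2 CPM in controls, 53.6, 47.5 and 114 at 45 min, 48.4, 43.7 and 43.4 at 135 min and 79.3, 76.2, 72.3 and 113 at 405 min. Here too control 2 was the highest control and 45-min replicate 3 the highest of its group. The log2 fold changes at 405 min were 0.53 (SE 0.34, adjusted p = 0.234) for Plk1, 0.70 (SE 0.27, adjusted p = 0.0655) for Aurka and 0.89 (SE 0.32, adjusted p = 0.0569) for Nek2. With library set as a term they were 0.12, 0.35 and 0.58, and none passed the test in either fit. Under the correction for GC content Plk1 turned to -0.09 (SE 0.21), Aurka was at 0.37 (SE 0.19) and Nek2 passed the test at 0.78 (SE 0.27, adjusted p = 0.0403).

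Cdc20 and Fbxo5 act on the APC/C in opposite ways, as its activator and as its inhibitor before mitosis (EMI1). Cdc20 had 70.3, 114, 97.1, 74.2 and 128 CPM in controls, 78.0, 64.4 and 188 at 45 min, 74.4, 69.5 and 67.0 at 135 min and 131, 84.9, 92.9 and 143 at 405 min. Fbxo5 had 112, 85.2, 130, 140 and 104 CPM in controls, 105, 111 and 56.4 at 45 min, 88.6, 94.7 and 92.9 at 135 min and 57.4, 79.2, 102 and 69.3 at 405 min. In 45-min replicate 3 Cdc20 was at its highest of all 15 libraries and Fbxo5 at its lowest. At 405 min their log2 fold changes were 0.23 (SE 0.29, adjusted p = 0.559) and -0.57 (SE 0.22, adjusted p = 0.0646). Espl1, the gene of separase, which cuts cohesin, lay at 0.59 (SE 0.24, adjusted p = 0.0852). Cdc20 turned to -0.15 (SE 0.25) with library set as a term, and under the correction for GC content Cdc20 turned to -0.47 (SE 0.25) and Espl1 to -0.07 (SE 0.15), neither past the test.

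Top2a had 602, 498, 633, 787 and 788 CPM in controls, 535, 639 and 812 at 45 min, 622, 637 and 670 at 135 min and 533, 598, 715 and 731 at 405 min. Every treated group overlapped the controls, and its log2 fold change was -0.04 at 135 min (SE 0.18) and at 405 min (SE 0.17). Foxm1, a transcription factor that activates late cell cycle genes, had 162, 179, 192, 187 and 170 CPM in controls, 168, 172 and 187 at 45 min, 156, 149 and 153 at 135 min and 159, 134, 152 and 171 at 405 min. All 135-min values were below all controls, while the 405-min values overlapped them. Its log2 fold change was -0.22 (SE 0.12, adjusted p = 0.477) at 135 min and -0.21 (SE 0.11, adjusted p = 0.147) at 405 min. At 405 min it was -0.24 with library set as a term, and under the correction for GC content Foxm1 fell by 0.83 (SE 0.22, adjusted p = 0.0137).

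The remaining roles showed no call at 405 min. The 5 spindle assembly checkpoint genes ranged from -0.57 (Mad2l1, SE 0.34) to 0.40 (Bub3, SE 0.19), the 5 centromere and kinetochore genes from -0.48 (Cenpf) to 0.11 (Ndc80), and the 6 central spindle and cytokinesis genes from -0.48 (Anln) to 0.05 (Racgap1). Among 7 spindle motors and microtubule proteins, Nusap1 (-0.56, SE 0.31), Kif4 (-0.54, SE 0.29) and Kif11 (-0.51, SE 0.25) lay lowest and Kif2c (0.43, SE 0.17) highest. Kif2c encodes MCAK, a motor that takes microtubules apart at their ends.

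Genes with higher and with lower values at 405 min differed in base composition. Exonic GC content ran from 40.5% to 56.1% over the list, with a median of 47.0% (49.1% over the tested genes with a value). The 20 genes above the median GC had a median log2 fold change of 0.16 at 405 min, with 11 positive, and the 21 at or below it had one of -0.37, with 3 positive. Across the 41 genes the Spearman correlation of GC content with log2 fold change was 0.45, and it was 0.03 with library set as a term and -0.15 under the correction for GC content. Genes share libraries and are not independent, so these are descriptions. The library sets were split on the GC slope of genes outside the lists, and the correction fits GC itself. A smaller correlation under either fit is therefore partly built in. At 135 min the correlation was -0.02 against all controls and 0.24 against the 4 controls of the same set, and the medians of the groups above and at or below the median GC were -0.22 and -0.30 against all controls. At 45 min it was 0.58, and it was 0.48 with library set as a term, 0.54 within set 1 and -0.04 under the correction for GC content, so a term for library set did not remove it there. The part of library preparation in this relation was not tested, and set and time cannot be fully told apart at 405 min, since 3 of 4 samples at 405 min and 1 of 5 controls were of set 2.

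**Figure D5:**
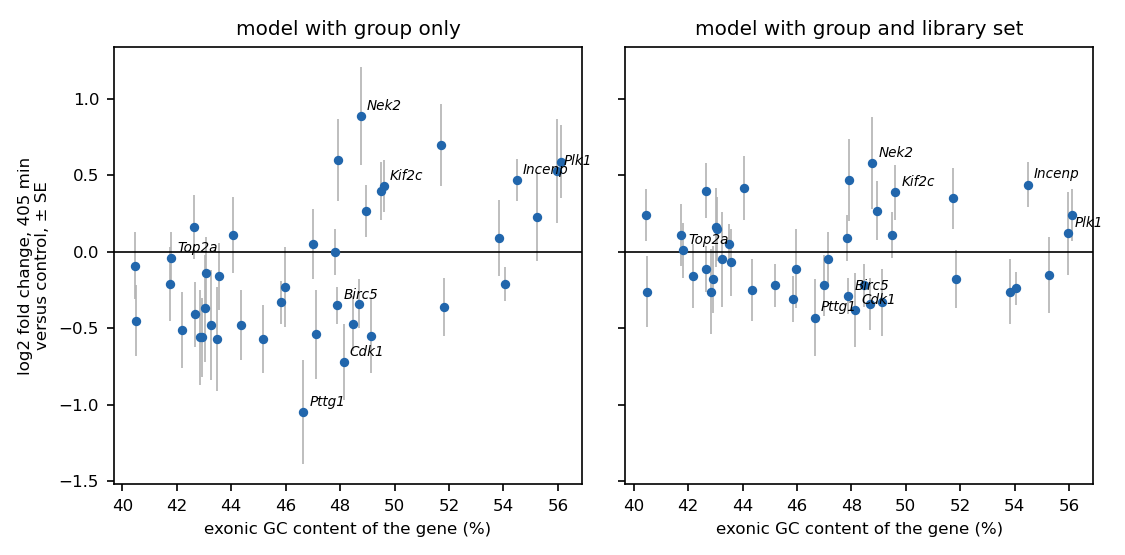
Log2 fold change at 405 min (± SE, edgeR) against exonic GC content for the 41 genes, from the model with group only (left) and with group and library set (right). On the left the points rise with GC (Spearman 0.45) and on the right they do not (0.03). The library sets were themselves defined by GC dependence.

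The fold changes were also set beside the promoter letters. At 135 min the 24 genes with a CHR core had a median of -0.30, with 23 negative, and the 10 genes without one had a median of -0.36, with 8 negative. At 405 min the medians were -0.15 and -0.39, and with library set as a term they were -0.05 and -0.14. The 10 genes without the core include Bub1 and Cdc25b, whose windows hold TTCGAA. These are descriptions with no test, over the 34 genes with a window.

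From 135 to 405 min, Kif2c alone rose in the list, beside 2.24% of all genes called up, and none fell, beside 2.82%. It had 65.8, 67.8 and 68.9 CPM at 135 min and 101, 108, 136 and 138 at 405 min, with 78.4, 86.0, 96.0, 73.7 and 113 in controls. The 135-min samples were below all controls and below all 405-min samples. The difference of 405 from 135 min was 0.84 on the log2 scale (SE 0.19, adjusted p = 0.0263), and 0.78 (SE 0.21, adjusted p = 0.0531) with library set as a term. Leaving out any 1 of the 135-min samples or 405-min replicate 4 also ended the call (adjusted p from 0.0972 to 0.118). Larger differences that were not past the test were 1.07 for Plk1 (SE 0.39, adjusted p = 0.11), 0.92 for Aurka (SE 0.31, adjusted p = 0.0904) and 0.87 for Nek2 (SE 0.37, adjusted p = 0.155). The list's median difference was 0.03 over all samples and 0.26 with library set as a term (all tested genes 0.04 and 0.02). Of 41 genes, 25 were higher at 405 than at 135 min over all samples and 36 with library set as a term. Of all 10276 tested genes, 5416 and 5332 were higher in these fits. The latter fit depends on 405-min replicate 3, the only 405-min library of set 1, and on a set effect taken from other groups too. Without 405-min replicate 3 the median with group only was -0.17. In counts of groups that did not overlap, 11 genes were above (19.2% of all genes) and 2 below (17.6%).

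The wider pathway was read from lists of genes that are not in the list above. Among p53 and its cell cycle arm, 6 of 10 genes were tested, and 2 rose at 135 min (Cdkn1a and Mdm2) and 5 at 405 min. Over all genes 1.46% were called in either direction at 135 min and 9.99% were called up at 405 min. With library set as a term 5 of the 6 rose at 135 min, beside 3.06% of all genes called up. Mdm2, the gene of the ligase that marks p53 for destruction, had a log2 fold change of 2.62 (SE 0.19) at 135 min and 1.21 (SE 0.17) at 405 min, and Gadd45a, an inhibitor of CDK1, one of 1.51 (SE 0.29) at 405 min. Trp53 itself was called at 405 min (1.51, SE 0.48, adjusted p = 0.0348) but had 98.5 CPM in control 2 against 20.7 to 35.2 in the other controls, and with library set as a term it was 0.63 (adjusted p = 0.0709). Cdkn2a, the gene of p16 and ARF, reached at most 1 count in any library.

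Of 16 genes of DREAM, MuvB and their partner factors, none was called at 135 min (1.46% of all genes) and 3 rose at 405 min (9.99%). These were Lin37, a MuvB subunit (1.86, SE 0.32), Rbl2, the gene of p130 (1.15, SE 0.35), and Rb1, the retinoblastoma gene (0.81, SE 0.25). Lin37 had 2.52 to 8.77 CPM in controls and 24.4, 19.9, 15.1 and 25.0 at 405 min, which did not overlap. Its change (1.5) and that of Rb1 (1.13) also passed with library set as a term, and that of Rbl2 (0.82, adjusted p = 0.0928) did not. Of 30 genes of DNA replication and the G1/S transition, none was called at 135 min (median 0.10). At 405 min 1 fell, the histone mRNA binding protein gene Slbp (-1.13, SE 0.31), beside 13.4% of all genes. Of 13 genes of the APC/C, its subunits and the co-activator gene Fzr1, none was called at 135 min. At 405 min Anapc7 rose (0.66, SE 0.18) and Anapc13 fell (-0.75, SE 0.25), beside 9.99% and 13.4% of all genes. With library set as a term, Slbp (-0.55, adjusted p = 0.0875), Anapc7 (0.52, adjusted p = 0.0604) and Anapc13 (-0.32, adjusted p = 0.138) did not pass the test.

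A further 64 tested mitosis genes had a median of -0.21 at 135 min, with 49 negative, and -0.13 at 405 min, with 34 negative, near the medians of the list (-0.29 and -0.21). Gtse1, a microtubule-binding protein of G2 and S phase that is known to bind p53, was the 1 gene among them that rose at 135 min. It had 33.4, 64.8, 49.9, 40.7 and 41.8 CPM in controls, 153, 157 and 159 at 135 min and 174, 140, 91.2 and 140 at 405 min, with no overlap. Its log2 fold change was 1.76 (SE 0.25, adjusted p = 0.00173) at 135 min and 1.57 (SE 0.24, adjusted p = 0.00062) at 405 min. With library set as a term 8 of the 64 were called down at 135 min and 1, Gtse1, up, beside 4.88% and 3.06% of all genes. At 405 min 8 of the 64 rose and 5 fell, beside the 9.99% and 13.4% of all genes given above, among them the minus-end motor gene Kifc1 (1.59, SE 0.54), uncertain because mouse has a near-identical paralog, the condensin gene Smc4 (-1.12, SE 0.36) and Depdc1a (-1.09, SE 0.38). With library set as a term 4 rose and 2 fell, and Kifc1 (0.83, adjusted p = 0.112), Smc4 (-0.47, adjusted p = 0.198) and Depdc1a (-0.56, adjusted p = 0.273) did not pass the test. Ube2c, the APC/C partner enzyme whose entry in the list was marked as not used, was looked up for that reason after its values were seen. It had 83.0, 72.7, 144, 117 and 110 CPM in controls and 51.9, 48.5 and 59.6 at 135 min, all below the controls, with a log2 fold change of -0.98 (SE 0.27) that was not past the test (adjusted p = 0.109). Ube2c was called down with library set as a term (-0.97, SE 0.26, adjusted p = 0.0339) and against the controls of set 1 (-1.08, SE 0.18, adjusted p = 0.00908).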

How the data were processed

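Poly(A) RNA of 15 samples was profiled by mRNA-seq on a HiSeq 2000. The authors mapped reads to mm9 and counted them over RefSeq genes on DNAnexus, with an aligner that is not given in the sources used here. The labels name 1 library kit, whereas the methods describe a second preparation route and do not say which library used which. The deposited read counts are expected counts (8.7% to 15.6% of a sample's genes were not whole, and large values had 4 significant digits). They were rounded before testing. The authors also deposited an RPKM per gene, used here for levels between genes, a Z score of the RPKM, and a ratio (the RPKM over its root mean square), both unused.

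Genes with at least 1 count in all 15 samples were tested in edgeR 4.0.16 (R 4.3.3; TMM factors, quasi-likelihood F-test, 1 term for group, Benjamini-Hochberg threshold 0.05), and scripts were tested on simulated data. DESeq2 1.42.0 was an alternative. Groups and replicate numbers came from sample titles. Library sets were defined by the slope of log2 CPM on exonic GC content (NCBIM37, GENCODE vM1), leaving out the cell cycle lists. The correction for GC content was a spline with 5 degrees of freedom per sample. Copies of transcripts were sought with minimap2 2.31 (at least 95% identity over 50%). Depth was 6652539 to 30258404 counts, and 22 replicate pairs differed by more than sampling noise (chi-square of 10 to 237.2 per degree of freedom). Members and lists were chosen with earlier results of these data known. Values in every sample were given for 10 genes set beforehand (Ccnb1, Cdk1, Ccna2, Plk1, Aurka, Cdc20, Birc5, Top2a, Foxm1 and Fbxo5) and for members called against control. Genes outside the list were named as Cdkn1a, Trp53 and up to 4 per list with the largest change called at 405 min, with other names said to be chosen after their values were seen.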

Additional observations from a re-analysis of the deposited data

Results flagged for a closer look

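In 8 of 82 groups tested, the highest or lowest sample stood farther from the others than a rule for 1 outlying sample allows, where chance flags about 1 in 20 groups. Control 2 was low for Bub1 (94.2 CPM), Mad2l1 (99.6 CPM) and Kif4 (137 CPM), and control 3, the shallowest library, was low for Nek2 (9.94 CPM) and Incenp (161 CPM). Control 5 was high for Bub1b (153 CPM). The 405-min replicate 3, the only 405-min library of set 1, was high for Cdk1 (207 CPM) and Pttg1 (48.3 CPM). For Kif2c the change from control at 405 min differed from that at 135 min by 0.84 on the log2 scale, by the edgeR test of that difference.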

How the results depend on the processing

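Normalization by RLE or upper-quartile factors kept the counts of called members but for 1 in place of 2 down at 405 min under upper-quartile factors. Members called at 405 min (1 up and 2 down) became 3 up and 5 down by DESeq2, 1 up and 8 down under the GC correction, 0 up and 1 down with no filter, 1 up and 0 down with the replicate block and library set together, and 0 with a fit of the compared groups only, with the replicate block, with library set as a term, and within set 1 or set 2. Of all 10276 tested genes, DESeq2 called 1438 up and 1972 down at 405 min, and the GC correction 932 up and 2075 down. At 135 min (0 called) the GC correction, alone or with the replicate block, gave 1 up, library set as a term 3 down, set 1 alone 6 down, and library set with the block 1 up and 1 down. The rise from 135 to 405 min (1 member) became 3 by DESeq2 and 8 with a fit of the compared groups only, and 0 with no filter, the GC correction, library set as a term, set 1 alone, or the replicate block with or without either. Over all genes 813 were called up there by DESeq2 and 1880 with the compared groups only. The list's median moved to 0.46 at 45 min and 0.08 at 405 min within set 2, and to 0.43 for 405 against 135 min within set 1. Incenp at 405 min turned to -0.10 under the GC correction and to -0.09 with the block added, and Pttg1 to 0.12 within set 2. Genes that were not called also changed sign at 405 min, among them Plk1, Cdc20 and Espl1 under the GC correction, Cdc20 with library set as a term, and Cdk1 within set 2. The cause of these moves was not tested.

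Leaving out 1 library at a time, members called at 405 min ranged from 0 to 5 up (5 without control 2; 4 without control 5 or 45-min replicate 3; 2 without control 3 or 405-min replicate 3; 0 without control 1 or 405-min replicate 1, 2 or 4) and from 0 to 14 down (14 without control 2; 13 without 405-min replicate 3; 3 without 45-min replicate 3; 1 without control 3 or 45-min replicate 2; 0 without the other 10). Those called at 135 min ranged from 0 to 1 down (1 without control 2), and those up from 135 to 405 min from 0 to 2 (2 without control 2, control 3 or 45-min replicate 3; 0 without a 135-min sample or 405-min replicate 4). The list's median ranged from -0.12 to 0.07 at 45 min, from -0.36 to -0.14 at 135 min, from -0.40 to -0.03 at 405 min and from -0.17 to 0.22 for 405 against 135 min.

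Over all genes, calls at 45 min (0) became 2 up and 4 down by DESeq2, 3 up and 1 down with library set as a term and 1 up with the block added. At 135 min (58 up, 92 down) they were 161 and 269 by DESeq2, 32 and 48 with no filter, 16 and 24 with only the compared groups, 314 and 501 with library set as a term, 115 and 115 under the GC correction and 216 and 361 within set 1. At 405 min (1027 up, 1382 down) they were 349 and 463 with only the compared groups, 634 and 706 with library set as a term, 932 and 2075 under the GC correction, 121 and 94 within set 1 and 243 and 239 within set 2. For 405 against 135 min (230 up, 290 down) they were 813 and 691 by DESeq2, 151 and 248 with the filterByExpr filter, 83 and 124 with no filter, 1880 and 1324 with only the compared groups, 257 and 600 under the GC correction and 0 within set 1. Leaving out 1 library gave 20 to 115 up and 22 to 182 down at 135 min, 418 to 2517 up and 528 to 2463 down at 405 min, and 19 to 755 up and 23 to 637 down for 405 against 135 min.

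Replicate numbers are shared between groups, but samples of the same number did not deviate together (mean correlation -0.11 over 19 pairs, 4 of them over 0.1, against 0.028 over 64 pairs of different number), and 2 samples correlated best with their own number. With the replicate block the calls over all genes were 11 up and 20 down at 135 min, 333 and 467 at 405 min and 5 and 10 for 405 against 135 min. The block with library set gave 235 and 386, 588 and 640, and 96 and 118, and the block with the GC correction gave 38 and 37, 536 and 1224, and 52 and 104. Depth limits the list little, since its lowest count in any library was 54 (Cdc25c), whereas the uneven spread of library sets over time points limits every statement at 405 min.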
